A study of Mus musculus with 8 samples.

Results

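The genes described here are 40 mouse genes of mitochondrial fatty acid oxidation and targets of the peroxisome proliferator-activated receptors (PPARs), followed by name from a fixed list through an array that names 19505 genes. All 40 are on the array, with 66 probes in all. At least 1 probe of 34 of them was well above background in at least 4 of the 8 channels of a treatment, the minimum set for a test, which 14308 genes of the array met. Of the members, 27 belong to mitochondrial oxidation (24 tested) and 13 are other PPAR targets (10 tested).

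The samples came from C57BL/6J male mice, 21 weeks old. The treated mice received di(2-ethylhexyl) phthalate (DEHP), a plasticizer, in corn oil by gavage at 200 mg/kg per day for 21 days, and the vehicle mice received corn oil. RNA came from laser-captured areas of 10 µm sections of the right testis that are labelled rich in Sertoli cells, the supporting cells of the seminiferous tubule, and was amplified in 2 rounds. Each of 4 pairs set 1 DEHP mouse against 1 vehicle mouse on 2 arrays of opposite dye, so the study holds 4 mice in each treatment and 8 arrays. The capture protocol in the labels names Leydig cells while the tissue label names Sertoli cells, and 1 RNA extract of captured tissue stands for each mouse. The p-values and intervals of the main test rest on the spread between the 4 pair ratios. In that test limma draws each probe's variance toward that of all tested probes. A sign-flip test below uses the 4 pair ratios alone. A permutation test uses the levels of the 8 mice without the pairing. In captured tissue, fewer cells of a type and less RNA per cell cannot be told apart.

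Fatty acids are taken up, joined to coenzyme A by acyl-CoA synthetases, carried into mitochondria through the carnitine shuttle, and shortened there by the acyl-CoA dehydrogenases and the enzymes of the beta-oxidation spiral. The dehydrogenases pass their electrons to the electron transfer flavoprotein, a dimer of the products of Etfa and Etfb, and from there to the ubiquinone pool through the product of Etfdh. Sertoli cells are known to oxidise fatty acids, including those from the residual bodies and apoptotic germ cells that they engulf, and to supply lactate to germ cells. Metabolites of DEHP activate PPAR alpha in rodent liver, where genes of this set, Cyp4a10 and Cyp4a14 among them, are classic targets.

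The probes behind the results below are 60-mers of the array's design, placed by the authors' files on the build mm7. Shown are those of the genes with the largest mean difference in each direction (Etfb and Ucp2), of Etfa, the partner of Etfb, of 3 acyl-CoA synthetases and of a classic liver target, since a ratio is a value of the stretch of transcript that its probe reads. For Acsl1 the probe shown is one of 3 tested and not the brightest, which gave the gene's main values. Capitals mark AATAAA, a polyadenylation signal hexamer, which was searched in the printed strand only and stood in 9.09% of the 66 member probes and in 4.78% of all 41174 probes.
Etfb, chr7:39633278-39633337, plus strand: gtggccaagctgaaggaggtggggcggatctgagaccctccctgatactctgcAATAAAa
Ucp2, chr7:96545541-96545600, plus strand: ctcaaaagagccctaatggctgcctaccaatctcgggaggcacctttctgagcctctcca
Etfa, chr9:55494373-55511846, minus strand: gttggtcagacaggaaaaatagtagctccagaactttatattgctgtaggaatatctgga
Acsl1, chr8:45312289-45312348, plus strand: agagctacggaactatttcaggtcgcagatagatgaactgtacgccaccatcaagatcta
Acsl5, chr19:55208487-55209075, plus strand: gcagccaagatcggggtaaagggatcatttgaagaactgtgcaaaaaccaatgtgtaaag
Acsl6, chr11:54317906-54317965, plus strand: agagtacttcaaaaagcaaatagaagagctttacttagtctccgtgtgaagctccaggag
Cyp4a10, chr4:114901988-114902047, plus strand: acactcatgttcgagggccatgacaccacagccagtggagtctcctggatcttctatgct
The intervals of the Etfa and Acsl5 probes are longer than the probes, so those 2 probes join sequence that lies apart in the genome. The Etfb probe holds the hexamer near its 3′ end. Gene models of mm7 were not used here, so no exon or UTR is assigned to these positions.

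Most of the genes gave a signal in every mouse. The probe used for each gene, the brightest of its tested probes, was well above background in all 16 channels for 31 of the 34 tested members. Cyp4a10 was well above background in 4 of 8 DEHP and 4 of 8 vehicle channels, Cyp4a14 in 2 and 4, and Vnn1, a pantetheinase and PPAR target, in 2 and 5. The 6 members left out of the tests were Acads and Acadsb, which are acyl-CoA dehydrogenases, Decr1, an enzyme for unsaturated fatty acids, the uncoupling protein gene Ucp3, the lipase gene Lpl and the fatty acid binding protein gene Fabp4. Their best probe was well above background in 0 and 0, 2 and 2, 0 and 0, 0 and 0, 0 and 1, and 0 and 3 DEHP and vehicle channels, in that order. Fabp4 and Lpl, both abundant in fat and capillary-rich tissue, were thus at or near background in most of the 16 channels, and no difference is reported for the 6 genes.

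**Figure D1:**
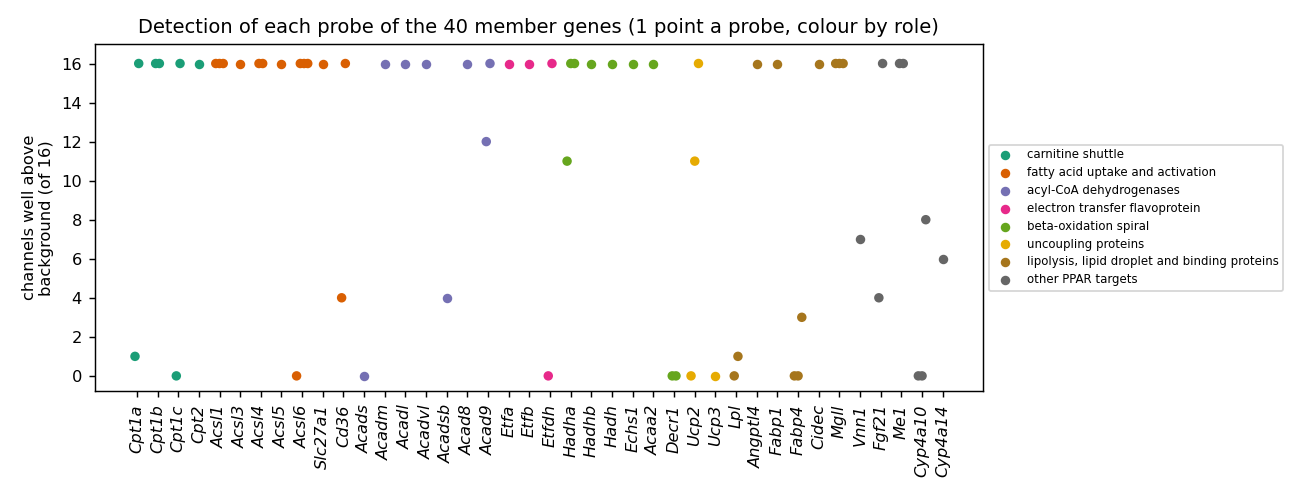
The number of channels, of 16 (8 for DEHP and 8 for vehicle), in which each probe of the 40 members was well above background, with 1 point for each of the 66 probes and a colour for each role. Most members have a probe at 16, and those of Acads, Decr1 and Ucp3 all lie at 0.

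Ratios are given as log2 of DEHP over vehicle, the mean of the 4 pairs ± SD. Across 22975 tested probes, 0 passed an adjusted p of 0.05 in limma's moderated test with Benjamini-Hochberg adjustment, the smallest adjusted p was 0.903, and 1055 (4.59%) had an unadjusted p under 0.05. Of the 34 members, 0 passed the adjusted threshold and 1 had an unadjusted p under 0.05 by limma, where the background is 0% of all tested genes for the former and 4.61% for the latter. No member's level is therefore called changed by DEHP in what follows. Of the members' means, 13 were above 0 and 21 below, and 49.8% of all tested genes were above 0. The median was -0.02 over the members and -0.00058 over all genes. The 95% interval of the mean lay within 1.5-fold in either direction for 31 members, with Etfb, Acsl5 and Acadl as the exceptions, and within 2-fold for all 34. Of all 14308 tested genes, 13239 lay within 1.5-fold and 14260 within 2-fold, so the members' counts are near the background. These intervals hold for ratios computed after an offset of 50 was added to every intensity, which pulls the ratios of dim probes toward 0.

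**Figure D2:**
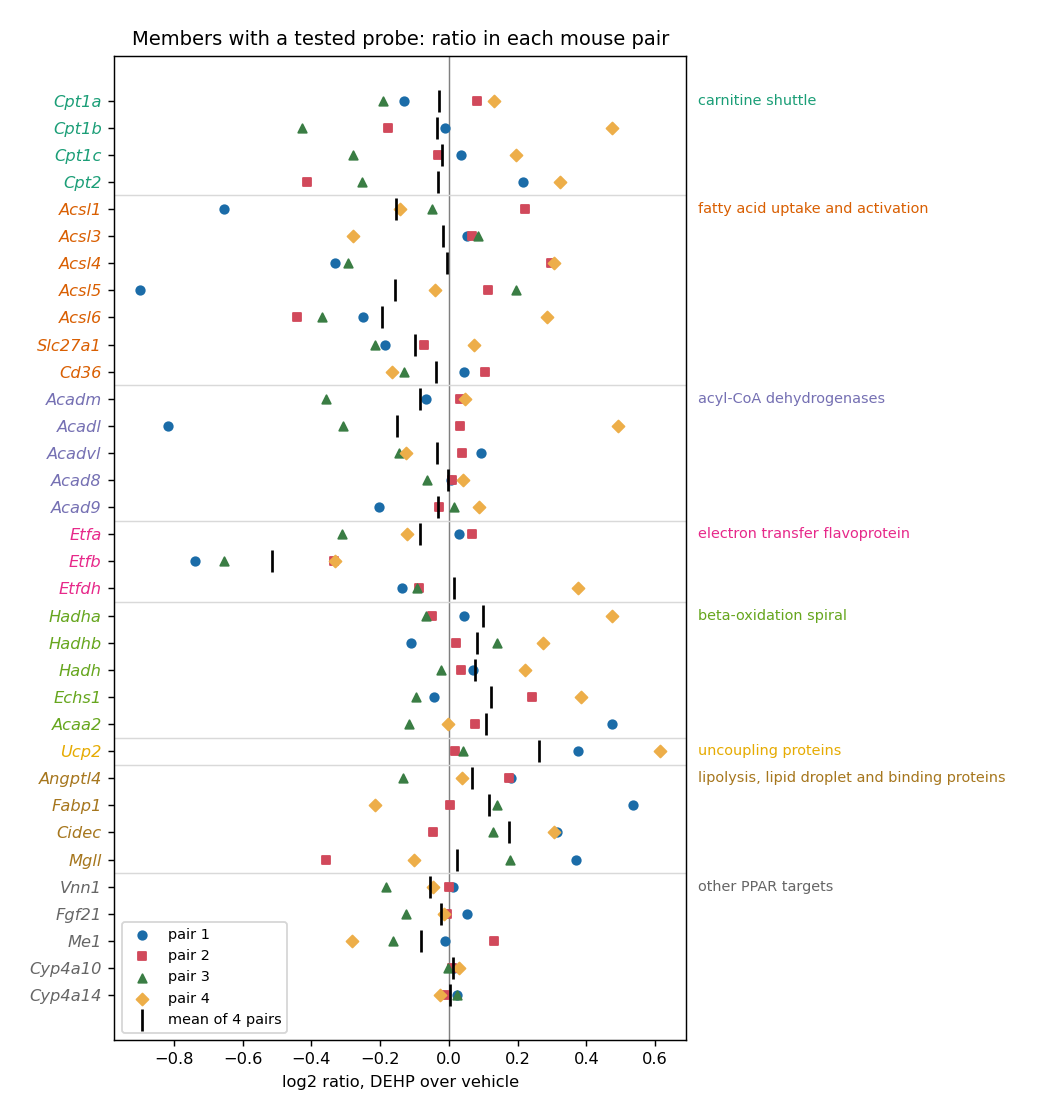
The log2 ratio of DEHP over vehicle in each of the 4 mouse pairs (coloured symbols) and their mean (black bar) for the 34 tested members, ordered by role. The 4 values of Etfb lie between -0.74 and -0.33, and those of most other members fall on both sides of 0.

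Etfb had the largest difference of the set. Its mouse levels, log2 intensities averaged over both dyes, were 11.99, 12.40, 12.18 and 12.15 in DEHP mice 1 to 4 and 12.48, 12.72, 12.73 and 12.83 in vehicle mice 1 to 4. Every DEHP mouse was below every vehicle mouse. The ratio was -0.74 in pair 1, -0.33 in pair 2, -0.65 in pair 3 and -0.33 in pair 4, a mean of -0.51 ± 0.21 (SD, n = 4 pairs), or a DEHP level of 0.701 times that of vehicle. The 95% interval ran from -0.75 to -0.28, with an unadjusted p of 0.00254 and an adjusted p of 0.903 by limma. Etfb had the 13th smallest p of the 14308 genes, so 0.903 is the adjusted value that many genes near the head of the list share.

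Etfb was the 1 member whose groups of 4 mice did not overlap, while 0.951% of all tested genes had 4 DEHP mice below all vehicle mice and 1.65% did not overlap in either direction. It was also the 1 member lower in all 4 pairs, against 6.38% of all genes. An exact permutation test of 4 against 4 mice gave p = 0.0286 (two-sided), the smallest this design allows, and an exact sign-flip test over the 4 pairs gave its smallest possible p, 0.125. Every gene whose groups do not overlap gets the first value, and every gene of 1 sign in all 4 pairs gets the second. Both values follow from the counts just given and add no support to them. The mean was -0.66 on the slide with DEHP in Cy5 and -0.37 on the slide with DEHP in Cy3, and all 8 arrays were below 0, from -0.93 to -0.12. Slide and dye orientation cannot be told apart.

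The partners of Etfb had smaller differences on these arrays. Etfa, the alpha subunit, had ratios of 0.03, 0.07, -0.31 and -0.12 in pairs 1 to 4, and a mean of -0.09 ± 0.17. Its levels were 7.97, 8.10, 7.83 and 8.12 in the DEHP mice and 8.24, 7.94, 8.03 and 8.14 in the vehicle mice, so the groups overlapped. Etfdh had -0.14, -0.09, -0.09 and 0.38, a mean of 0.01 ± 0.24. Only pair 4 was above 0, where vehicle mouse 1 had the lowest level of the 8 mice, 10.29, against 10.47 to 10.78 in the others. The difference between Etfb and its partners was not tested. Etfa was much dimmer than Etfb, whose mice lay at 11.99 to 12.83, so the offset narrows the Etfa ratios more. A smaller Etfa ratio is therefore not by itself a smaller difference in RNA. Over all alternatives, among them settings without the offset, the Etfa mean ran from -0.135 to -0.00923. That of Etfb ran from -0.662 to -0.365. Each of the 3 genes had 1 tested probe, so no second probe checks the Etfb values.

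**Figure D3:**
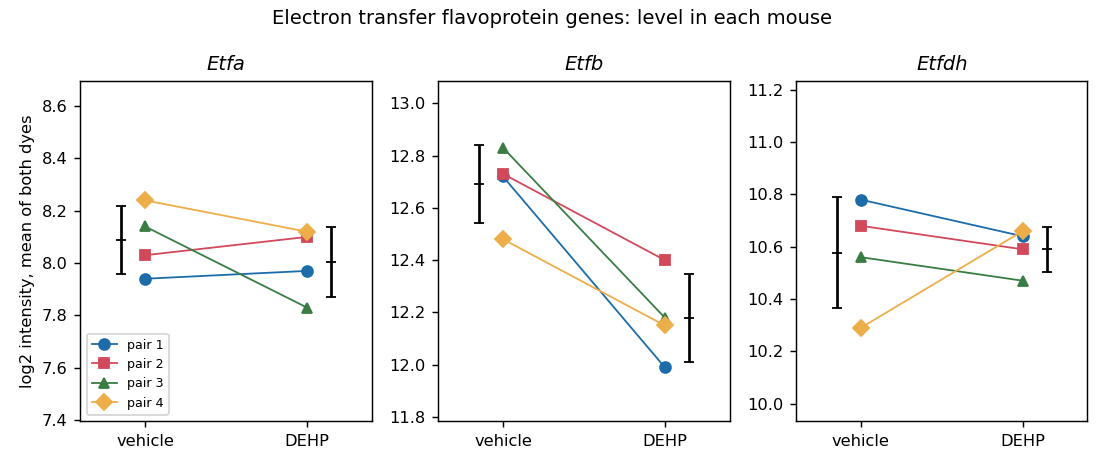
Levels of Etfa, Etfb and Etfdh as log2 intensity in each of the 8 mice, with a line for each mouse pair and the mean ± SD of 4 mice beside each treatment. The axes span the same log2 range, and only the Etfb panel shows 2 groups apart, with DEHP mice at 11.99 to 12.40 and vehicle mice at 12.48 to 12.83.

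The carnitine shuttle genes moved in different directions from pair to pair. Cpt1a, the liver-type outer membrane carnitine palmitoyltransferase, had a mean of -0.03 ± 0.16 with a 95% interval of -0.22 to 0.16. Cpt1b, the muscle-type enzyme, had -0.01, -0.18, -0.43 and 0.47 in pairs 1 to 4, a mean of -0.03 ± 0.38, while its other tested probe had a mean of 0.12. Cpt1c had -0.02 ± 0.20, and Cpt2, the inner membrane enzyme, had 0.22, -0.41, -0.25 and 0.32, a mean of -0.03 ± 0.36. For all 4 genes pair 3 was below 0 and pair 4 above it. The 4 means were all just below 0, median centring in place of loess turned 2 of them above 0, and leaving out pair 3 turned all 4.

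Genes of fatty acid uptake and activation had 7 of 7 means below 0, with a median of -0.10. This count fell to 4 of 7 with no background correction, with Agilent's processed ratios, with median centring, with array weights and without pair 1. With the authors' deposited ratios, 3 of the 6 genes held there were below 0 and the median was -0.01. Acsl6, a long-chain acyl-CoA synthetase known from brain and germ cells, had -0.25, -0.44, -0.37 and 0.28 in pairs 1 to 4, a mean of -0.19 ± 0.33. Its levels were 11.36, 10.90, 11.17 and 11.30 in the DEHP mice and 11.01, 11.61, 11.35 and 11.54 in the vehicle mice. The groups overlapped, with vehicle mouse 1, the partner in pair 4, second lowest of the 8 mice. Its 2 other tested probes had means of -0.05 and 0.05. They were dim, with treatment mean levels of 7.16 to 7.31 against 11.18 and 11.38 for the probe shown above. The offset narrows ratios at such levels, so they cannot tell whether the negative mean is particular to that probe.

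Acsl1 and Acsl5, synthetases of the same family, had the largest SDs between pairs among the genes of fatty acid uptake and activation. Acsl1 had ratios of -0.65, 0.22, -0.05 and -0.14, a mean of -0.16 ± 0.37 with an interval of -0.54 to 0.23. The Acsl1 probe printed above, one of 3 tested, had -0.96 in pair 1 and a mean of -0.23, and the third had -0.39 in pair 1 and a mean of -0.02. All 3 probes therefore put pair 1 lowest. Acsl5 had -0.90, 0.11, 0.20 and -0.04, a mean of -0.16 ± 0.50, with levels of 8.78, 8.81, 8.63 and 9.36 in the DEHP mice and 9.40, 9.68, 8.70 and 8.44 in the vehicle mice. The spread among the 4 vehicle mice alone exceeded the difference between the treatments.

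The remaining genes of this role had means nearer 0. Acsl3 had -0.02 ± 0.17 and Acsl4 had -0.01 ± 0.36, with 0.06 for the other Acsl4 probe. The fatty acid transporter gene Slc27a1 had -0.19, -0.07, -0.21 and 0.07, a mean of -0.10 ± 0.13. Cd36, the fatty acid translocase and a PPAR target, had -0.04 ± 0.13 with an interval of -0.20 to 0.13. The Cd36 mean was above 0, at 0.24, with Agilent's processed ratio and at 0.30 with the authors' deposited ratios.

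Among the acyl-CoA dehydrogenases, Acadl, which acts on long chains, was the most variable member of all. It had -0.82, 0.03, -0.31 and 0.49 in pairs 1 to 4, a mean of -0.15 ± 0.55. Its levels were 7.33, 7.64, 7.52 and 8.12 in the DEHP mice and 7.63, 8.14, 7.60 and 7.83 in the vehicle mice. DEHP mouse 4 and vehicle mouse 2 were the 2 highest, 1 of each treatment. Both arrays of pair 1 were below 0, at -0.60 and -1.03, and both arrays of pair 4 above it, at 0.53 and 0.45, so the 2 arrays of each of these pairs had the same sign.

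Acadm, the medium-chain enzyme, had -0.07, 0.03, -0.36 and 0.05, a mean of -0.09 ± 0.19. Acadvl, the very-long-chain enzyme, had a mean of -0.03 ± 0.12, made of -0.18 on the slide with DEHP in Cy5 and 0.12 on the slide with DEHP in Cy3. Acad8 and Acad9 had means of 0.00 ± 0.04 and -0.03 ± 0.12, and the other tested Acad9 probe had a mean of 0.01. All 5 tested dehydrogenases had means below 0, median centring turned 2 of them above 0, and leaving out pair 3 turned 3 of them.

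Markers of elongating spermatids, which are late germ cells, were high in some of the mice where Acadl, Acsl1 and Acsl5 were high. The mean centred level of 10 of 10 such genes was 0.28 in vehicle mouse 2 and 0.22 in DEHP mouse 4, against -0.14 to 0.04 in the other 6 mice, and the list's median ratio was -0.47, 0.07, 0.11 and 0.30 in pairs 1 to 4. The list was not uniform. Odf1 was lowest of the 8 mice in vehicle mouse 2, at 9.62. Odf1, Spata3 and Tnp2 had pair 1 ratios of 0.41, 0.21 and 0.12, while the rest of the list was below 0 there. The summed level ran from 616000 to 885000 in the DEHP mice and from 601000 to 863000 in the vehicle mice. Prm1 and Tnp1, which package sperm DNA, were well above background in all channels. The 2 mice with the highest Acadl are the same 2 mice, and vehicle mouse 2 also had the highest Acsl1 and Acsl5. Vehicle mouse 1 was next highest for Acsl1 and Acsl5, with the markers at -0.14. Other variable members had another order: Cpt2 was highest in vehicle mice 4 and 3, at 13.49 and 13.47, and Acsl4 in DEHP mouse 2, at 9.56. The round spermatid list, 9 genes, was highest in vehicle mouse 1, at 0.32, and lowest in vehicle mouse 2, at -0.22. The part of these cells in the ratios was not tested.

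**Figure D4:**
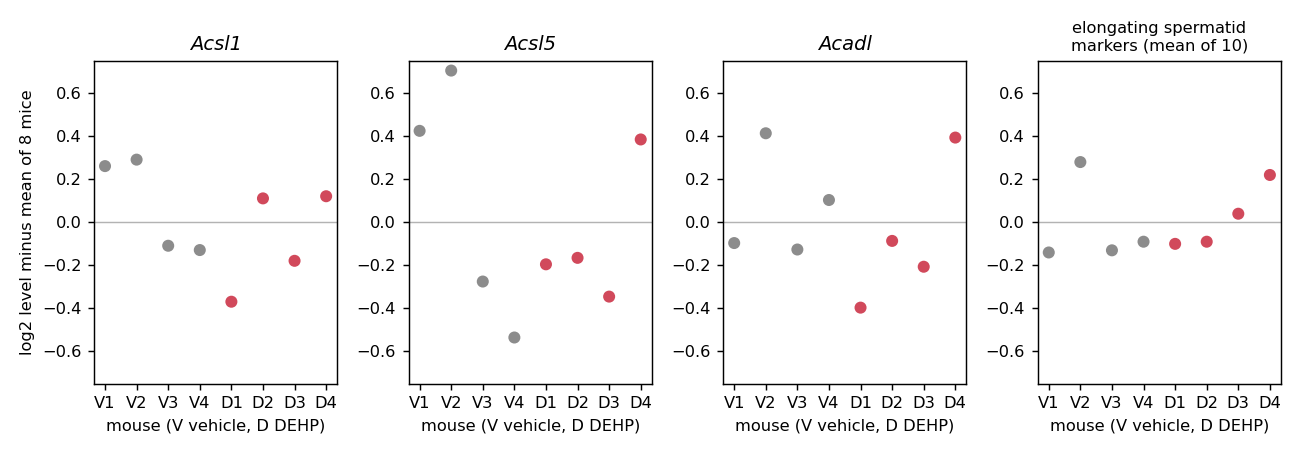
Levels of Acsl1, Acsl5 and Acadl and the mean of 10 elongating spermatid markers in the 8 mice, as log2 intensity minus the mean of the 8 mice (grey, vehicle; red, DEHP). Vehicle mouse 2 is highest for Acsl1, Acsl5 and the markers, and DEHP mouse 4 is among the 2 highest for Acadl and the markers.

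Genes of the beta-oxidation spiral had 5 of 5 means above 0, with a median of 0.10, and the count was at least 4 under each of the 18 other settings. Settings that changed only the block, the dye term, the use of separate channels or the variance model left the means as they were, so they could not lower the count. It fell to 4 with DEHP in Cy5 alone, without pair 1 and without pair 4. Taking the mean over all tested probes of a gene, which is not among those settings, put Hadha below 0, at -0.0757. Echs1, the short-chain enoyl-CoA hydratase, had -0.04, 0.24, -0.09 and 0.38, a mean of 0.12 ± 0.23. Hadhb, the beta subunit of the trifunctional protein, had -0.11, 0.02, 0.14 and 0.28, a mean of 0.08 ± 0.16. Hadh, the hydroxyacyl-CoA dehydrogenase, had 0.08 ± 0.10, and the thiolase gene Acaa2 had 0.47, 0.08, -0.12 and 0.00, a mean of 0.11 ± 0.26. None of the 5 was higher in all 4 pairs, against 6.58% of all genes.

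Hadha, the alpha subunit of the trifunctional protein, gave different values by probe. The brightest probe had 0.04, -0.05, -0.07 and 0.48, a mean of 0.10 ± 0.26. The 2 other tested probes had means of -0.07 and -0.26, and both were below 0 in all 4 pairs. The latter had -0.10, -0.01, -0.66 and -0.28. These probes lie 34423 bases apart at the farthest and are each assigned to a different sequence record. Which of them read the same transcript was not tested. Of the 9 members with more than 1 tested probe, 6 had probes with means of opposite sign. Some of these means lay near 0, as for Acad9, at -0.03 and 0.01. The share over all genes with several probes was not computed, so this count has no background beside it.

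Ucp2, which codes for a mitochondrial uncoupling protein, was the 1 member of 34 higher in all 4 pairs, against 6.58% of all genes, so this count is no more than the background. Its levels were 7.64, 7.48, 7.54 and 7.73 in the DEHP mice and 7.11, 7.27, 7.46 and 7.50 in the vehicle mice. The groups overlapped by a small margin, since DEHP mouse 2 lay below vehicle mouse 4. The ratios were 0.37, 0.02, 0.04 and 0.62, a mean of 0.26 ± 0.29 with an interval of -0.04 to 0.57, an unadjusted p of 0.0768 and an adjusted p of 0.903 by limma. The probe is dim, and the mean was 0.70 with Agilent's processed ratio and 0.56 with the authors' deposited ratios. Another tested probe of Ucp2, well above background in 11 channels, had a mean of 0.06. Without pair 4 the mean was 0.15.

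Genes of lipolysis, lipid droplets and fatty acid binding had 4 of 4 means above 0, with a median of 0.09, though 2 of the 4 were below 0 on the slide with DEHP in Cy3 and without pair 1. Cidec, a lipid droplet protein, had 0.31, -0.05, 0.13 and 0.31, a mean of 0.18 ± 0.17 with an unadjusted p of 0.0716 by limma. Its levels were 8.21, 7.99, 7.94 and 7.81 in the DEHP mice and 7.50, 7.89, 8.04 and 7.81 in the vehicle mice, which overlap. Fabp1, the liver-type fatty acid binding protein, had 0.54, 0.00, 0.14 and -0.21, a mean of 0.12 ± 0.32. Angptl4, an inhibitor of lipoprotein lipase and a PPAR target, had a mean of 0.07 ± 0.15, with 0.31 on the slide with DEHP in Cy5 and -0.18 on the slide with DEHP in Cy3. Mgll, the monoacylglycerol lipase gene, had 0.02 ± 0.32, and its 2 other tested probes had 0.06 and -0.02.

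Among the other PPAR targets, the microsomal omega-hydroxylase genes Cyp4a10 and Cyp4a14 had levels of 7.05 to 7.11 and 7.05 to 7.11 in the DEHP mice and 7.04 to 7.10 and 7.05 to 7.11 in the vehicle mice. Their mean ratios were 0.01 ± 0.01 and 0.00 ± 0.02, with 95% intervals of -0.09 to 0.11 and -0.10 to 0.11. Both genes lay near background, where the offset narrows ratios, so these intervals bound the measured ratio more closely than they bound the RNA. Vnn1 had -0.05 ± 0.09 and -0.37 with Agilent's processed ratio. Fgf21, a hormone gene induced by PPAR alpha in liver, had levels of 7.56 to 7.77 in the DEHP mice and 7.56 to 7.85 in the vehicle mice, and a mean of -0.02 ± 0.08. These values come from a probe of 20% GC, the lowest of the member probes. The other Fgf21 probe, of 51.7% GC, was well above background in 2 DEHP and 2 vehicle channels and was not tested. How well the first probe reads Fgf21 was not tested. Me1, malic enzyme, had -0.01, 0.13, -0.16 and -0.28, a mean of -0.08 ± 0.18, and -0.09 for its other probe.

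The receptors themselves were measured. Ppara, Pparg and Rxra were well above background in all 16 channels and Ppard in 8 of them. Ppara had 0.21, -0.06, 0.21 and -0.21, a mean of 0.03 ± 0.21, and Pparg had 0.03, 0.05, 0.23 and -0.28, a mean of 0.01 ± 0.21. In a list of 11 tested receptor and coactivator genes, 4 means were above 0 and 7 below, and 0 had an unadjusted p under 0.05 by limma. Its 2 smallest p-values belonged to the coactivator gene Lpin1, at -0.24 ± 0.25, and the PPAR partner Rxra, at -0.15 ± 0.22. Rxra was below 0 in every pair, though by -0.02 in pairs 1 and 2.

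Other genes of mitochondrial oxidation, outside the 40, had 14 means above 0 and 13 below among 27 tested. Of these, 3 were higher and 1 lower at an unadjusted p under 0.05 by limma, against 2.44% and 2.17% of all genes, and 0 passed the adjusted threshold. The 3 higher were Eci2, an enoyl-CoA isomerase gene, at 0.27 ± 0.18, Acsf2, an acyl-CoA synthetase gene, at 0.17 ± 0.10, and Auh, an enoyl-CoA hydratase gene, at 0.16 ± 0.10, each above 0 in all 4 pairs. The 1 lower was Crat, carnitine acetyltransferase, at -0.38, -0.42, -0.53 and 0.06, a mean of -0.32 ± 0.26. Slc25a20, the carnitine carrier of the inner membrane, had 0.00 ± 0.05 from a dim probe.

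Other PPAR targets outside the 40 had 8 means above 0 and 11 below among 19 tested. At an unadjusted p under 0.05 by limma, 1 was higher and 0 were lower, against 2.44% and 2.17% of all genes. None passed the adjusted threshold. In 1 gene of the list every DEHP mouse was below every vehicle mouse, against 0.951% of all genes. The 1 higher gene was Hilpda, a lipid droplet protein, with 0.47, 0.05, 0.22 and 0.53, a mean of 0.32 ± 0.23. Cidea, of the same family as Cidec, had 0.88, 0.33, 0.24 and -0.03, a mean of 0.35 ± 0.39. The classic targets Pdk4 and Plin2 had -0.04 ± 0.12 and -0.14 ± 0.19.

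Among cell type markers, 17 of 19 Sertoli cell genes were tested, with Sox9, Wt1 and Rhox5 well above background in all channels, and Gata4 and Espn below the minimum. Of the Leydig cell markers 6 of 10 were tested, Insl3, Star and Cyp17a1 among them, and Cyp11a1 and Lhcgr at 0 of 16 channels. The Leydig list had median ratios of -0.20, 0.20, -0.51 and -0.23 in pairs 1 to 4, and its summed level ran from 19600 to 31300 in the DEHP mice and from 21000 to 28300 in the vehicle mice. The Sertoli list had 0.04, 0.12, -0.08 and 0.03, with 12 means above 0 and 5 below. The part of these cells in the members' ratios was not tested.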

How the data were processed

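The authors deposited Agilent Feature Extraction output (version 9.5.1.1 per the file headers) with a spot's intensity in each dye and Agilent's log10 ratio, and a table of log2 ratios that the files show to run as DEHP over vehicle, correlated at 0.943 to 0.972 with the processed ratios of the same arrays. That table's normalization is not given in the sources used here. The column medians were -0.00223 to 0.0116. From the intensities, limma 3.58.1 in R 4.3.3 subtracted background by normexp with an offset of 50 and applied loess within arrays, with control and outlier spots (154 to 209 outliers per array) left out. No spot was saturated, and 49.8% to 59.5% of the spots were well above background, by array and dye.

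Same-numbered arrays share both mice per the labels, so the 2 dye-swapped arrays of a pair, which correlated at 0.539 to 0.717 over the tested probes, were averaged into 1 value. Limma's intercept and moderated test ran on 4 values over all 22975 probes. Array names were updated through RefSeq tables: 22951 probes were named by accession, 6659 by symbol and 3109 by older symbol, and 8455 kept no gene. Genes use the brightest tested probe. Genes were named by a fixed rule. It took members with an unadjusted p under 0.05 by limma, the 6 largest means in each direction and 22 chosen members. It also took every tested probe of a member with several, and the 2 smallest p-values of each other pathway list. Cell type markers were named as examples of detection or as genes that differ from the rest of their list. The members and lists were chosen with earlier results of these data known, so their counts are descriptions. Some genes of the other lists are not reported here. Fits were tested on simulated data. Alternatives covered background, normalization, filter, block, dye, weights, pairs and probe choice. Arrays give no read depth, and their number limits the precision.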

Additional observations from a re-analysis of the deposited data

Results flagged for a closer look

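The criterion was a sample whose gap to its nearest neighbour was too large a share of the range of its group of 4 by Dixon's test, applied to the pair ratios, the DEHP levels and the vehicle levels of 26 members. Of 78 groups, 2 met it, and chance gives about 1 in 20. The Etfdh ratio of pair 4 was 0.375, while the other pairs lay between -0.136 and -0.0869. The Fabp1 level of DEHP mouse 4 was 8.94, while the other DEHP mice lay between 9.26 and 9.29.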

How the results depend on the processing

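The counts of probes and of members past the adjusted threshold were 0 under each of 18 alternatives, with 497 to 3243 probes and 1 to 3 members at an unadjusted p under 0.05 by limma, and leaving out each pair in turn gave 0 and 0. With the replicate block for the arrays of a pair (duplicateCorrelation), 0 probes passed (smallest adjusted p 0.473) and the Etfb mean was -0.51 with an adjusted p of 0.594. The pairing changed no call. Etfb ranged from -0.66 to -0.37 over all alternatives, with adjusted p-values of 0.115 and above. The median over oxidation members was -0.0867 to 0.0117 when 1 pair was left out, above 0 only without pair 3, and 0.0239 with median centring. The median over other PPAR targets was -0.0136 to 0.0384 when 1 pair was left out and -0.0197 on the slide with DEHP in Cy3. It moved to 0.135 with the authors' deposited ratios, which held 5 of the 10 genes. Of 484 values of 26 members, 14 moved by more than the SD between pairs and 48 changed sign. No value of Acsl6, Cidec, Echs1, Etfa, Etfb, Hadhb, Slc27a1, Ucp2 or Vnn1 changed sign. Alternatives that changed only the block, the dye term, the use of separate channels or the variance model keep the mean ratios. Their values could not move or change sign, though they are among the 484.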
